A study of Mus musculus with 8 samples.

Results

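The genes of mitochondrial complex I and its assembly factors whose symbols begin with Nduf were followed in epididymal white adipose tissue (eWAT), the visceral fat pad beside the epididymis. They were chosen by symbol alone: every gene of the array with a single annotated symbol starting with Nduf was taken, 42 of 22180 genes, and each was read from the probe set with the highest mean over all 8 arrays. The tissue came from male mice on a C57BL/6J background, aged 14 weeks, kept on normal chow, left without food overnight and then given chow for 1 h. The WT group held 3 wild-type mice and the KO group 5 mice lacking Abhd15, with 1 array per mouse. The sources used here do not say how the Abhd15 allele was made, or whether mice shared a litter. Values are log2 signals of Affymetrix Mouse Gene 2.0 ST arrays, on which a difference of 1 is a doubling, and all differences below are KO minus WT.

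Complex I, or NADH:ubiquinone oxidoreductase, is the entry point of electrons into the mitochondrial respiratory chain. Its matrix arm takes electrons from NADH through a flavin (the N module) and hands them over a chain of iron-sulphur clusters to ubiquinone (the Q module), while its membrane arm pumps protons. The catalytic core is made of nuclear-encoded subunits of the matrix arm and 7 membrane subunits encoded by mitochondrial DNA, and nuclear-encoded accessory subunits surround it. Assembly factors, many named Ndufaf, help to build the enzyme and are not part of the finished complex. White adipocytes hold few mitochondria compared with brown ones, but use them for fatty acid and glucose oxidation and for the precursors of lipid synthesis.

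The 8 arrays had medians over the tested genes between 6.04 and 6.07, apart from KO 5 at 5.93, which also had the lowest array weight (0.335). Adipocyte markers were abundant in every array, with Fabp4 between 12.71 and 12.84. The mean of the 13 adipocyte markers measured lay between 10.2 and 10.4 in WT and between 9.97 and 10.4 in KO, lowest in KO 5. Of the 13, 9 were lower and 4 higher in KO, and 3 had an unadjusted limma p under 0.05 (23.1%, against 10.5% of all tested genes). In every KO array Plin4 (-0.51) and Pparg (-0.47) lay below WT and Cebpa (0.32) above it. Among all tested genes 5.54% lay below WT in every KO array and 2.99% above it. Abhd15 itself was at 6.36, 6.45 and 6.15 in WT and at 5.77, 6.07, 6.27, 5.60 and 5.75 in KO 1 to 5, a difference of -0.43 with an SE of 0.170 and an adjusted limma p of 0.423. KO 3 lay inside the WT range. The position of the probes relative to the deleted part was not known, so these values do not check the labels. Testis and sperm markers averaged 5.81 in WT 1, 4.79 in WT 2 and 4.39 in KO 4 and no more than 3.50 elsewhere. The epididymal genes Lcn5 (8.56), Defb42 (7.44) and Spink11 (7.06) were high in KO 4 alone. Lcn6 (2.74), Lcn8 (1.92) and Lcn9 (1.85) in KO 4 lay within the range of the other arrays. The seminal vesicle genes Svs2 (6.38), Svs4 (6.45) and Svs6 (5.21) were high in WT 1 alone, and Svs5 was at 7.43 in WT 1 and 4.51 in WT 2. Endothelial markers averaged 7.52 to 7.86 in WT and 7.22 to 7.56 in KO, with 8 of 10 lower in KO, 5 of them at an unadjusted p under 0.05, against 6.46% of all tested genes. Of 8 brown or beige adipocyte markers 5 were tested, 4 of them higher in KO (80.0%, against 44.8% of all tested genes). The median log2 fold change of the 5 was 0.30, and Prdm16 (-0.31) was lower. Cidea was at 3.59, 3.77 and 3.38 in WT 1 to 3 and 5.41, 5.14, 4.05, 3.91 and 4.11 in KO 1 to 5. It lay above WT in every KO array, as did 2.99% of all tested genes. Its values were highest in KO 1 and KO 2 (0.95, adjusted p = 0.376 in limma). Ucp1, the uncoupling protein that defines brown fat cells, was at 2.60 to 3.60 in all arrays, below the tested level. The mean differences of the untested markers were -0.16 (Ucp1), -0.65 (Elovl3) and 0.19 (Dio2). The part of these markers in the Nduf values was not tested. The 9 immediate early genes, which respond within minutes to stimulation or handling, averaged 6.79 in KO 1 and 6.84 in KO 2. Their mean was 5.93 in KO 3 and 4.71 to 5.21 in the other arrays. The 9 were not alike: Fosb was at 6.34 in KO 1 and 6.80 in KO 2, against 2.79 to 3.23 in WT. Jun, at 8.08 in KO 1 and 8.13 in KO 2, lay within the WT range of 7.75 to 8.22. Each array measured a whole tissue, so fewer cells of a type and less RNA per cell cannot be told apart.

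Of the 42 Nduf genes, 41 reached the level at which genes were tested (a mean of 3.61 or more). None of the 41 passed the threshold of an adjusted p of 0.05 in limma, and neither did any of the 11090 genes tested (0.0%). At an unadjusted p under 0.05, 1 Nduf gene differed, Ndufv1, or 2.44%, against 10.5% of all tested genes (4.04% higher and 6.46% lower in KO). The log2 fold changes of the 41 genes ran from -0.33 (Ndufa4l2) to 0.38 (Ndufb3), and none reached 0.5 in either direction, whereas 6.70% of all tested genes did. Their median was 0.044, against -0.028 over all tested genes, with 26 genes higher and 15 lower in KO (63.4% higher, against 44.8% of all tested genes). When each array was centred on its own median over all probe sets, 31 were higher and 10 lower (75.6%, against 50.9%). For 22 of the 41 genes the 95% confidence interval lay wholly between -0.5 and 0.5. For the other 19 the data leave a change of 0.5 or more possible, the widest bounds being -0.84 (Ndufa4) and 0.86 (Ndufb3).

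**Figure D1:**
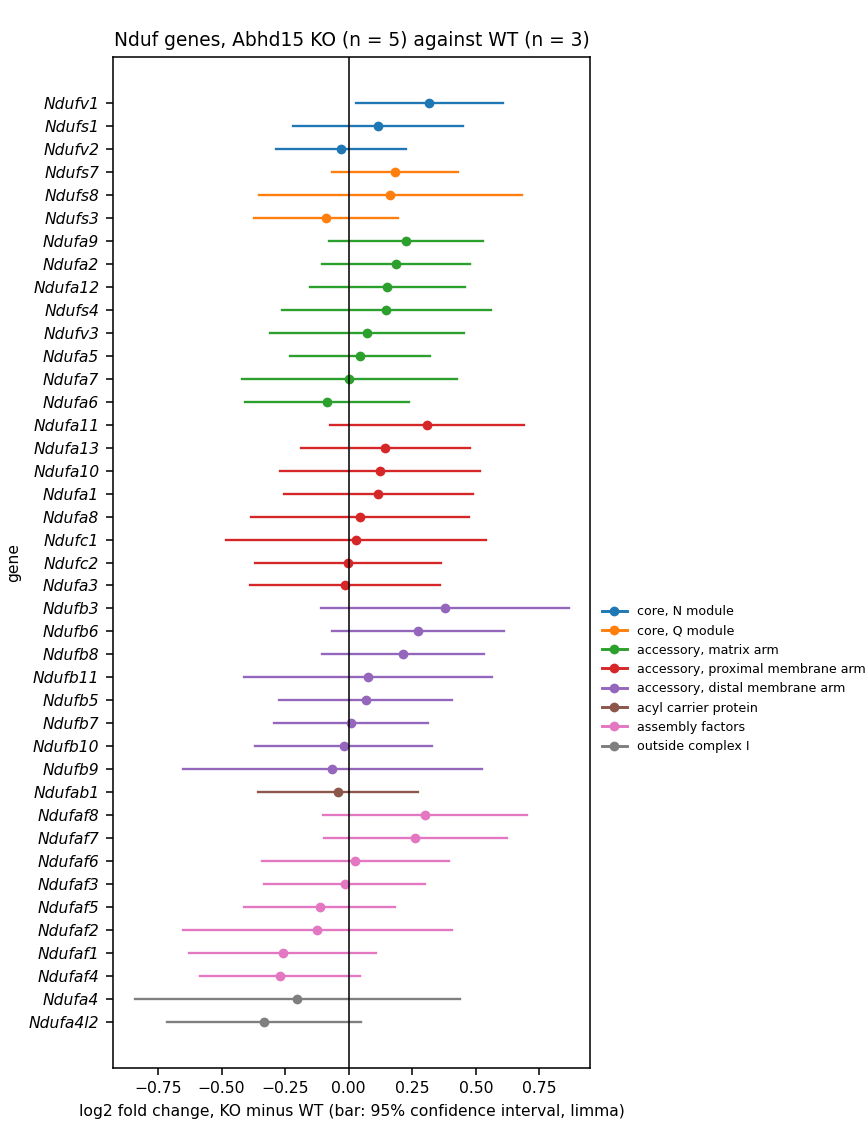
Log2 fold changes (KO minus WT, horizontal axis) of the 41 tested Nduf genes, with limma's 95% confidence intervals as bars and colours for the role of each gene. Points run from -0.33 for Ndufa4l2 to 0.38 for Ndufb3, and the interval of Ndufv1 alone does not include 0.

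Most structural subunits lay on the higher side. Of the 30 tested nuclear-encoded subunits of complex I, 23 were higher and 7 lower in KO (76.7% higher, against the 44.8% of all tested genes), with a median log2 fold change of 0.096. In the matrix arm 7 of 8 accessory subunits were higher, in the proximal membrane arm 6 of 8 and in the distal membrane arm 6 of 8. The 8 Ndufaf assembly factors were divided, with 3 higher and 5 lower and a median of -0.065. These counts describe the genes and carry no test of a difference between the roles. Over all 41 tested Nduf genes the number higher rested on KO 1 and KO 2. Without those 2 arrays, an alternative chosen after seeing the data, 16 of the 41 were higher (39.0%, against 40.6% of all tested genes). The median in that fit was -0.041. The gene with an unadjusted p under 0.05 in that fit was Ndufaf1, lower in KO. The counts by role were not made without those 2 arrays. By array, the median difference of the 31 measured nuclear-encoded subunits from WT was 0.31, 0.24, 0.097, 0.065 and -0.14 in KO 1 to 5. In WT it ran from -0.074 to 0.097.

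Of the core subunits of the N module, Ndufv1, the flavoprotein that binds NADH, was at 8.15, 8.08 and 8.14 in WT 1 to 3 and 8.55, 8.67, 8.26, 8.37 and 8.34 in KO 1 to 5. Every KO array lay above every WT array, with KO 1 and KO 2 highest and KO 3 nearest to WT. The KO mice averaged 8.44 ± 0.169 (SD, n = 5) and the WT mice 8.12 ± 0.0373 (SD, n = 3). This is a log2 fold change of 0.32 (SE 0.13, 95% interval 0.03 to 0.61, adjusted p = 0.434), or a fold of 1.25. Its exact two-sided permutation p was 0.0357, the smallest that 3 arrays against 5 allow. The unadjusted limma p of 0.0349 did not stay under 0.05 when WT 1, WT 2, WT 3, KO 1 or KO 2 was left out, although the log2 fold change stayed between 0.26 and 0.36 in all 8 fits without a single array. Without KO 1 and KO 2 together it was 0.20.

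Ndufv2, its iron-sulphur partner in the N module, was at 8.40, 8.21 and 8.31 in WT 1 to 3 and 8.37, 8.26, 8.30, 8.31 and 8.14 in KO 1 to 5. The groups overlapped and KO 5 was lowest, with a log2 fold change of -0.03 (SE 0.115, 95% interval -0.29 to 0.22, adjusted p = 0.948), whose sign turned in several other settings. Ndufs1, the largest iron-sulphur subunit, was at 7.44, 7.08 and 7.13 in WT 1 to 3 and 7.45, 7.47, 7.49, 7.19 and 7.08 in KO 1 to 5. KO 1, KO 2 and KO 3 were level with or slightly above the highest WT array, WT 1, and KO 5 was below all WT arrays. Its log2 fold change was 0.12 (SE 0.15, 95% interval -0.22 to 0.45, adjusted p = 0.824), and 0.25 with the replicate block.

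In the Q module, Ndufs7, which carries the last iron-sulphur cluster before ubiquinone, was at 8.43, 8.46 and 8.58 in WT 1 to 3 and 8.72, 8.75, 8.59, 8.62 and 8.69 in KO 1 to 5. All KO arrays lay above all WT arrays, but KO 3 exceeded WT 3 by less than 0.01. The log2 fold change was 0.18 (SE 0.111, 95% interval -0.06 to 0.43, adjusted p = 0.588), with an exact permutation p of 0.0357. Ndufv1 and Ndufs7 were thus the 2 of 41 tested Nduf genes whose groups did not overlap (4.88%), both higher in KO. Among all tested genes 2.99% lay above WT in every KO array and 5.54% below it.

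Ndufs8, another iron-sulphur subunit of the Q module, was at 8.21, 8.01 and 7.91 in WT 1 to 3 and 8.56, 8.57, 8.15, 8.24 and 7.50 in KO 1 to 5. KO 1 and KO 2 stood highest and KO 5 lowest of all arrays, so the KO values spread on both sides of WT. Its log2 fold change was 0.16 (SE 0.232, 95% interval -0.35 to 0.68, adjusted p = 0.839); without KO 5 it was 0.34 (unadjusted p = 0.0493, adjusted p = 0.346, in limma), and without KO 1 and KO 2 it was -0.077. With the replicate block it was 0.39 (SE 0.127, unadjusted p = 0.0248, adjusted p = 0.224, in limma). Ndufs3, a core subunit of the Q module with no cluster of its own, was at 5.45, 5.07 and 5.35 in WT 1 to 3 and 5.07, 5.24, 5.25, 5.21 and 5.23 in KO 1 to 5, a narrow KO range that lay wholly inside that of WT, with KO 1 within 0.01 of WT 2. The log2 fold change was -0.09 (SE 0.127, 95% interval -0.37 to 0.19, adjusted p = 0.839).

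**Figure D2:**
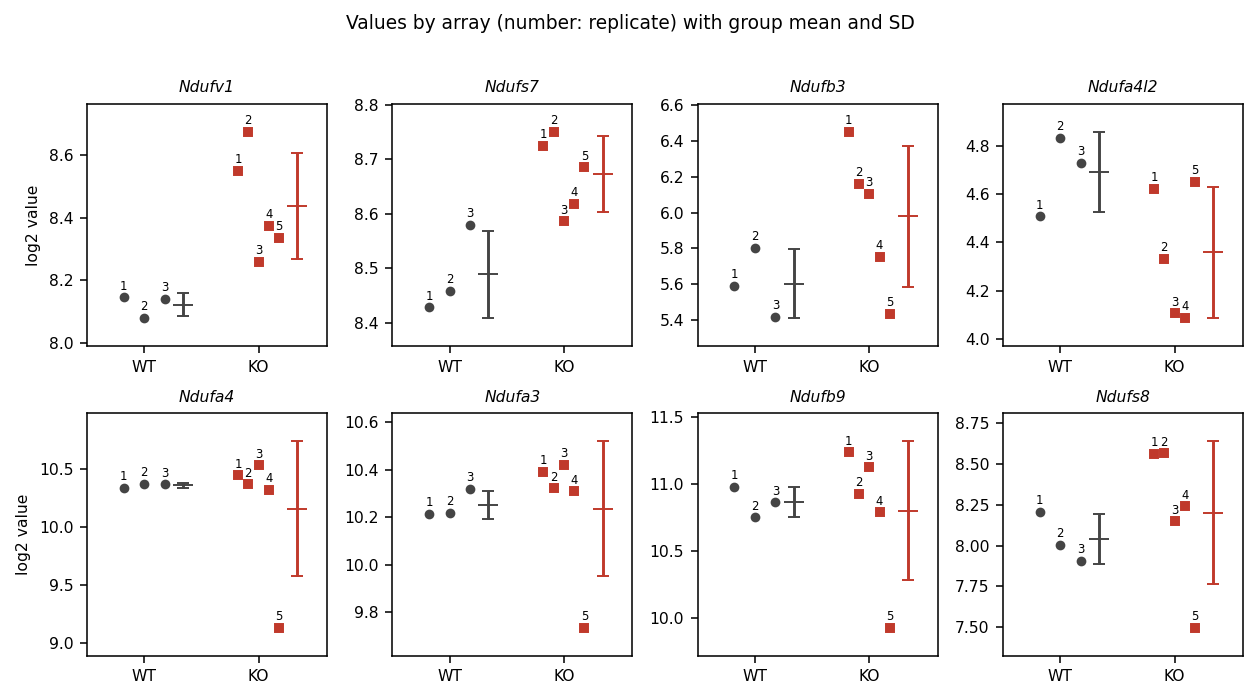
Log2 values of 8 Nduf genes by array (vertical axis, a separate scale in each panel), with the replicate number beside each point and the group mean and SD as a bar. Ndufv1 and Ndufs7 separate WT from KO, and in Ndufa4, Ndufa3, Ndufb9 and Ndufs8 KO 5 lies far below the other arrays.

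Accessory subunits of the matrix arm kept to small differences. Of 8 tested, the log2 fold changes ran from -0.09 (Ndufa6) to 0.23 (Ndufa9, at the junction with the membrane arm), and 0 had an unadjusted p under 0.05 in limma or an adjusted one. Ndufa2 (0.19), Ndufa12 (0.15) and Ndufs4 (0.15), whose loss in mice causes an encephalopathy that models Leigh syndrome, were in between. Ndufs4 was at 7.49, 7.20 and 7.33 in WT 1 to 3 and 7.71, 7.70, 7.66, 7.41 and 6.97 in KO 1 to 5: KO 1 to 3 lay above all WT arrays and KO 5 below all of them, and without KO 5 its log2 fold change was 0.28 (adjusted p = 0.364). Ndufv3 (0.07), Ndufa5 (0.04) and Ndufa7 (0.0030) were nearest to 0.

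In the proximal membrane arm the highest value was that of Ndufa11, a membrane subunit, at 7.30, 7.19 and 7.01 in WT 1 to 3 and 7.78, 7.49, 7.04, 7.42 and 7.63 in KO 1 to 5. KO 3 fell inside the WT range and the other KO arrays above it, with a log2 fold change of 0.31 (SE 0.171, 95% interval -0.07 to 0.69, adjusted p = 0.557). A second, dim probe set of Ndufa11 went the other way, KO averaging 3.11 ± 0.350 (SD, n = 5) and WT 3.60 ± 0.456 (SD, n = 3), with an exact permutation p of 0.143, and the mean of both probe sets gave -0.091. The other proximal subunits tested lay between -0.01 (Ndufa3) and 0.14 (Ndufa13, also known as GRIM-19). Ndufa8 had a second probe set as well, with a difference of 0.23 against 0.044 at the brighter one, and KO 5 was lowest at the brighter probe set but not at the other. The gene below the tested level was Ndufs5, at 3.47, 2.85 and 4.04 in WT 1 to 3 and 3.01, 3.01, 3.26, 3.10 and 2.89 in KO 1 to 5.

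Among the subunits of the distal membrane arm, Ndufb3 had the highest log2 fold change of all Nduf genes. It was at 5.59, 5.80 and 5.42 in WT 1 to 3 and 6.45, 6.16, 6.11, 5.75 and 5.43 in KO 1 to 5. KO 1, KO 2 and KO 3 lay above all WT arrays, KO 4 inside the WT range and KO 5 near its bottom. The log2 fold change was 0.38 (SE 0.219, 95% interval -0.11 to 0.86, adjusted p = 0.571), and without KO 5 it was 0.51 (unadjusted p = 0.0182, adjusted p = 0.253). With the replicate number as a block it was 0.64 (SE 0.144, unadjusted p = 0.00526, adjusted p = 0.151, in limma). Without KO 1 and KO 2 it was 0.16. Ndufb6 (0.27) and Ndufb8 (0.21) followed, and Ndufb9 (-0.06) and Ndufb10 (-0.02) were the members below 0. Ndufb9 was at 10.98, 10.75 and 10.86 in WT 1 to 3 and 11.24, 10.93, 11.13, 10.79 and 9.93 in KO 1 to 5, where KO 5 stood below every other array, and without it the log2 fold change was 0.15.

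Of the assembly factors, Ndufaf4, which acts on the early Q module with Ndufaf3, was at 5.85, 5.36 and 5.72 in WT 1 to 3 and 5.44, 5.30, 5.24, 5.52 and 5.37 in KO 1 to 5. Its KO values lay within or below the WT range, with a log2 fold change of -0.27 (SE 0.142, 95% interval -0.59 to 0.05, adjusted p = 0.541). Ndufaf1, a member of the complex that assembles part of the membrane arm, was at 5.99, 5.74 and 5.79 in WT 1 to 3 and 5.76, 5.88, 5.61, 5.45 and 5.21 in KO 1 to 5, with KO 3, KO 4 and KO 5 below all WT arrays and a log2 fold change of -0.26 (SE 0.165, 95% interval -0.63 to 0.11, adjusted p = 0.606), or -0.092 with the replicate block. Ndufaf3 (-0.02), the late factor Ndufaf2 (-0.12) and Ndufaf5 (-0.11), which modifies Ndufs7, were also below 0. Ndufaf8, a partner of Ndufaf5, was at 0.30, the methyltransferase Ndufaf7 at 0.26 and Ndufaf6 at 0.03. Ndufaf5 and Ndufaf8 thus lay on opposite sides of 0, and 0 of the 8 had an unadjusted p under 0.05 in limma.

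Ndufab1, the mitochondrial acyl carrier protein, serves fatty acid synthesis and iron-sulphur cluster formation in addition to complex I. It was at 5.65, 5.47 and 5.19 in WT 1 to 3 and 5.56, 5.51, 5.30, 5.32 and 5.28 in KO 1 to 5, its highest and its lowest value both in WT, with a log2 fold change of -0.04 (SE 0.141, 95% interval -0.36 to 0.27, adjusted p = 0.943). Ndufa4 carries the name of the family but is now counted as a subunit of cytochrome c oxidase, complex IV. It was at 10.34, 10.38 and 10.37 in WT 1 to 3 and 10.45, 10.37, 10.53, 10.32 and 9.13 in KO 1 to 5. The 3 WT and 4 of the KO arrays lay within about 0.2 of each other and KO 5 more than 1 below, so that the log2 fold change of -0.20 (SE 0.288, 95% interval -0.84 to 0.44, adjusted p = 0.839) became 0.056 without KO 5. Its paralogue Ndufa4l2, a target of the hypoxia-inducible factor, was at 4.51, 4.84 and 4.73 in WT 1 to 3 and 4.62, 4.33, 4.11, 4.09 and 4.65 in KO 1 to 5. KO 2, KO 3 and KO 4 lay below all WT arrays and KO 1 and KO 5 inside their range. The log2 fold change was -0.33 (SE 0.171, 95% interval -0.71 to 0.05, adjusted p = 0.527), the lowest among the Nduf genes, and -0.41 without KO 5 (unadjusted p = 0.0339, adjusted p = 0.305, in limma).

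In some arrays many Nduf genes stood high or low together. KO 1 or KO 2 held the highest value for 24 of the 41 tested genes (58.5%, against 29.0% of all tested genes). These are the 2 arrays with the highest mean of the immediate early genes given above. The part of this in the result was not tested. KO 5 held the lowest value for 15 of 41 (36.6%, against 28.9%) and was below the mean of the other KO arrays for 34 of 41 (82.9%, against 59.8%). In 9 genes KO 5 was more than 0.5 below the mean of the other KO arrays: Ndufa4 (-1.29), Ndufb9 (-1.09), Ndufs8 (-0.88), Ndufc1 (-0.81), Ndufb3 (-0.68), Ndufs4 (-0.65), Ndufa8 (-0.63), Ndufa3 (-0.63) and Ndufv3 (-0.60). Other Nduf genes in the same array were not low, such as Ndufa11 (0.19 above that mean) and Ndufs7 (0.016 above it). Without KO 5, 33 of the 41 genes were higher in KO (80.5%, against 48.3% of all tested genes) with a median of 0.15, and 4 had an unadjusted p under 0.05 (Ndufv1, Ndufb3 and Ndufs8 higher, Ndufa4l2 lower), or 9.76% against 14.4% of all tested genes. With the replicate number as a block, a fit that takes no information on the genotype from KO 4 or KO 5, 7 had an unadjusted p under 0.05, all higher in KO (Ndufv1, Ndufb3, Ndufb8, Ndufs4, Ndufs8, Ndufaf7 and Ndufaf8), or 17.1% against 18.0%. With array weights it was 4, Ndufv1, Ndufb3 and Ndufa9 higher and Ndufa4l2 lower, or 9.76% against 16.9%. None of the 41 passed after adjustment in these 3 fits.

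**Figure D3:**
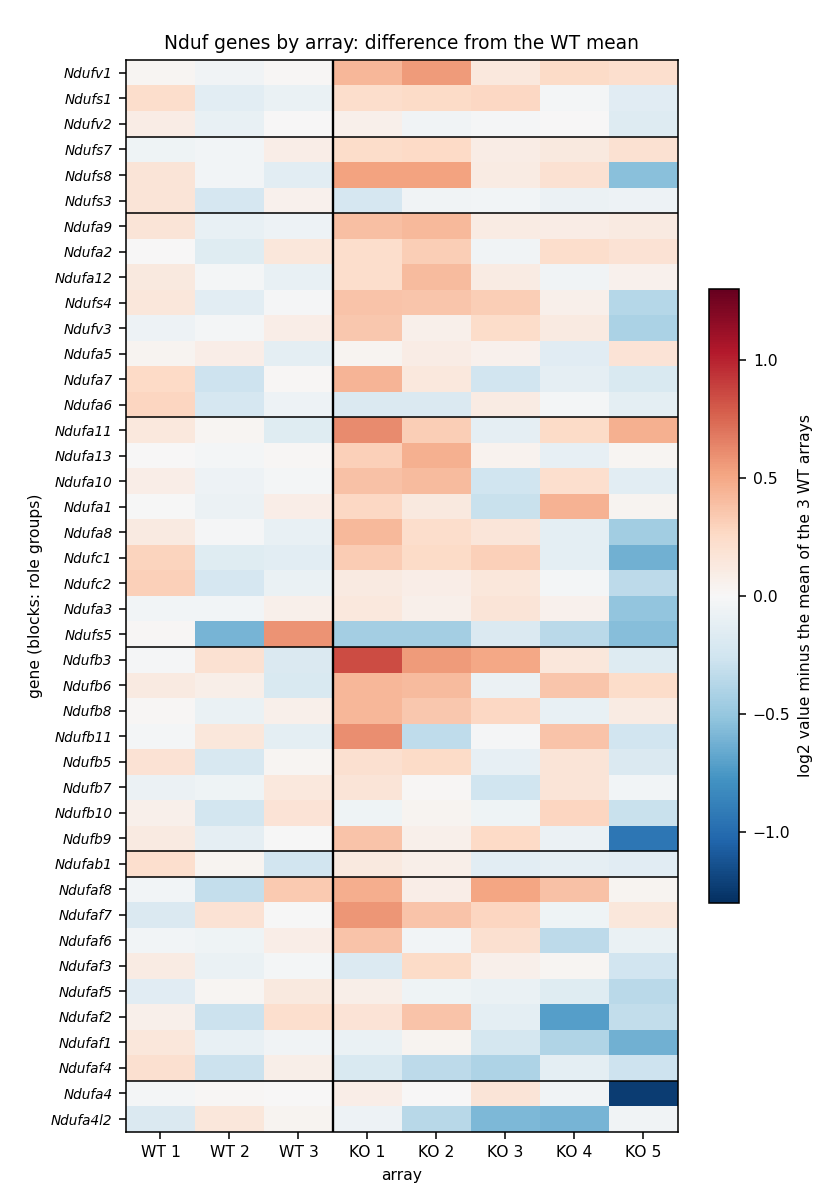
Difference of each of the 42 Nduf genes (rows, in blocks by role) from its WT mean in each array (columns), on a log2 colour scale with red above and blue below. The columns of KO 1 and KO 2 are mostly red, and KO 5 holds the deepest blue cells, Ndufa4 and Ndufb9.

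Spread between mice was larger in KO than in WT for 30 of the 41 genes (73.2%, against 68.1% of all tested genes), with a median SD of 0.143 in WT and 0.221 in KO. Without KO 5 the median SD in KO was 0.186. Of the 6 probe sets annotated to an Nduf gene together with another gene, and so not counted as members, the 2 of Ndufs6 and its copy Ndufs6b disagreed. The first was at 5.75, 5.39 and 5.68 in WT and 5.87, 5.80, 5.76, 5.83 and 6.42 in KO 1 to 5, with KO 5 highest and no overlap between the groups (exact permutation p = 0.0357). The second was at 8.23, 8.14 and 8.38 in WT and 8.72, 8.64, 8.53, 8.45 and 7.46 in KO, with KO 5 lowest and the other 4 KO arrays above WT (exact permutation p = 0.750). A probe set shared by Ndufs5 and its pseudogene averaged 6.49 ± 0.263 among KO mice (SD, n = 5) and 6.63 ± 0.359 among WT mice (SD, n = 3).

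The 7 subunits encoded by mitochondrial DNA had log2 fold changes from -0.17 to -0.028, with a median of -0.099. All 7 lay below 0, whereas 44.8% of all tested genes were higher in KO. Of the 7, 0 had an unadjusted p under 0.05 in limma, against 10.5% of all tested genes. Without KO 5 the median was -0.016 and 5 of the 7 were below 0, with ND3 and ND6 above. With arrays centred on all probe sets ND5 turned, with the replicate block ND3 and without WT 3 ND6, each leaving 6 below 0. ND1 was at 12.45, 12.55 and 12.50 in WT 1 to 3 and 12.38, 12.38, 12.44, 12.38 and 12.34 in KO 1 to 5. Every KO array lay below every WT array by a small margin, as for 5.54% of all tested genes. The log2 fold change of ND1 was -0.12 (SE 0.106, 95% interval -0.35 to 0.12, adjusted p = 0.728 in limma). ND3 was at 12.25, 12.33 and 12.28 in WT 1 to 3 and 12.29, 12.40, 12.25, 12.24 and 11.39 in KO 1 to 5, where KO 5 stood apart, and its log2 fold change was -0.17. ND4L (-0.14) and ND2 (-0.08) were also lowest in KO 5.

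Of 12 further assembly factors outside the Nduf names, 10 were higher and 2 lower in KO (83.3% higher, against 44.8% of all tested genes). Their median was 0.10. Dmac1 (0.21), Timmdc1 (0.14), Tmem126b (0.17) and Ecsit (0.12) had the smallest unadjusted p, which was 0.109 or more. The other respiratory complexes had medians between -0.014 (complex V) and 0.10 (complex II). Over the alternatives the median of complex V ran from -0.14 to 0.14, that of complex III from -0.11 to 0.11 and that of complex IV from -0.0018 to 0.14, so that their signs turned. Without KO 5 the median of complex V was 0.12. Of complex II 5 of 8 genes were higher, of complex III 7 of 13, of complex IV 15 of 22 and of complex V 9 of 18. An unadjusted limma p under 0.05 was held by 1 gene of complex II (12.5%), 1 of complex III (7.69%) and 0 of complexes IV and V. The share of all tested genes was 10.5%. The genes were Sdhaf2 (-0.29), which attaches the flavin of succinate dehydrogenase, and Ttc19 (-0.38), needed for complex III. Neither passed after adjustment (0.453 and 0.360 in limma). Cox8b, an isoform linked to brown fat, had the largest difference in complex IV (0.54, SE 0.328), with KO 1 (6.11) and KO 2 (5.64) above the other arrays (4.39 to 5.01).

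Among 14 tested genes that control transcription of the respiratory chain, 8 were lower and 6 higher in KO, with a median of -0.17 (-0.046 for all 16 without the level filter). Ppargc1b, a coactivator of mitochondrial genes, was at 6.21, 5.67 and 6.07 in WT 1 to 3 and 5.22, 4.98, 5.37, 5.13 and 5.62 in KO 1 to 5. All KO arrays lay below all WT arrays, with a log2 fold change of -0.72 (SE 0.178, 95% interval -1.12 to -0.32, adjusted p = 0.254). Gabpb1, a subunit of the ETS factor GABP (NRF-2) that binds promoters of respiratory chain genes, was at 5.03, 4.69 and 4.85 in WT 1 to 3 and 4.17, 4.44, 4.32, 4.59 and 4.40 in KO 1 to 5, again without overlap and with a log2 fold change of -0.48 (SE 0.137, 95% interval -0.78 to -0.17, adjusted p = 0.308). Its DNA-binding partner Gabpa (-0.28) and the mitochondrial RNA polymerase Polrmt (-0.25) overlapped between the groups. None of these 4 passed after adjustment over all genes. Ppargc1b and Gabpb1 were the 2 of 14 with an unadjusted p under 0.05 in limma (14.3%, against 10.5% of all tested genes). The same 2 lay below WT in every KO array, as did 5.54% of all tested genes. The log2 fold changes of the 6 genes higher in KO ran from 0.0079 (Tfam) to 0.30 (Ppargc1a, another PGC-1 coactivator).

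**Figure D4:**
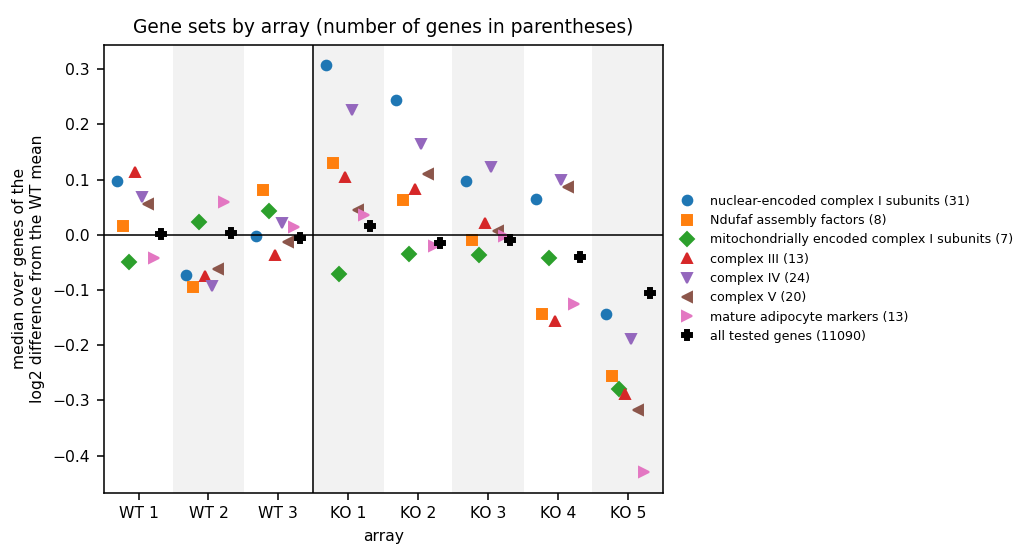
Median over the genes of each set of the log2 difference from the WT mean (vertical axis) in each array (horizontal axis), with the number of genes in parentheses. The nuclear-encoded complex I subunits stand at 0.31 in KO 1 and 0.24 in KO 2 but at -0.14 in KO 5, where the adipocyte markers are at -0.43.

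In KO 5 the median difference from WT was -0.14 for the nuclear-encoded subunits, -0.28 for the mitochondrially encoded ones, 0.023 for the other complex I assembly factors, -0.013 for complex II, -0.29 for complex III, -0.19 for complex IV, -0.32 for complex V, -0.43 for the mature adipocyte markers and -0.11 for all tested genes. Adipoq was at 8.57 in that array against 9.56 to 9.90 in the other 7, whereas Fabp4 was at 12.84. The part of these differences in the Nduf values was not tested.

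Promoter sequences were read for the Nduf genes with motifs of factors known to act on genes of the respiratory chain. RefSeq windows of 300 bases (250 before to 50 after the gene's start, build GRCm38.p6) were found for 37 of the 42 genes and searched on both strands for 4 fixed motifs. The YY1 letters AAGATGGC stood in 7 of the 37 genes (18.9%), against 3.57% of 17491 protein-coding genes. The palindromic NRF1 motif stood in 3 (8.11%, against 1.47%) and the ETS letters CCGGAAG in 6 (16.2%, against 12.9%). The letters TCAAGGTCA of the ERR receptors stood in 0 of the 37 windows, against 0.377% of protein-coding genes. All 7 YY1 matches lay on the gene's own strand within the 50 bases after its start. The following, 5′ to 3′ in 30 bases with the match in capitals, are those of the core subunit Ndufs7, of Ndufa9 and Ndufs4 of the matrix arm and of Ndufa3 of the membrane arm.
Ndufs7, chr10:80249462-80249491, plus strand: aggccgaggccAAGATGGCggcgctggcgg
Ndufa9, chr6:126849097-126849126, minus strand: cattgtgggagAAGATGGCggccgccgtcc
Ndufs4, chr13:114388045-114388074, minus strand: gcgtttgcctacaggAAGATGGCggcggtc
Ndufa3, chr7:3617384-3617413, plus strand: ccgccaagaacAAGATGGCcgggagtaagt
The log2 fold changes of these 4 genes were 0.18, 0.23, 0.15 and -0.01. A match describes the letters of the window and was not read as a bound site.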

How the data were processed

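The authors deposited log2 signals for each probe set of every array. RMA and oligo stand in the submitters' processing notes and Expression Console in the design text, without versions. The values were used as deposited. Of 41345 probe sets, 23521 had 1 gene symbol in the platform annotation, and 23328 of these were matched by Entrez identifier to RefSeq symbols (GRCm38.p6), giving 22180 genes. Other lists were matched through RefSeq synonyms and 9 hand-made aliases (mitochondrial ND genes and Atp5 names). A gene was tested where its mean reached the median of all gene means (3.61), which left 11090.

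The genotype contrast used limma 3.58.1 (lmFit, eBayes, R 4.3.3), two-sided, without a block, with Benjamini-Hochberg adjustment over all tested genes at 0.05. All limma p-values named adjusted are of this kind. For single values an exact permutation test, two-sided, ran over 56 splits of the arrays. The number of arrays limits the precision. The limma p-values set the group difference against the spread between these mice, which eBayes adjusts with information from all tested genes. Nduf genes with an unadjusted p under 0.05, the 3 highest and 3 lowest log2 fold changes, the core subunits, Ndufa4, Ndufa4l2 and Ndufab1 are given in full; Ndufs4, Ndufb9 and Ndufs5 were added after their values were seen. In each other list up to 4 genes of smallest unadjusted p are named, and Ppargc1a and Tfam were added after their values were seen. The members, lists and tests were chosen with earlier results of these data known.

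Deviations of same-numbered WT and KO arrays from their group means were weakly correlated (0.133, 0.103 and 0.192). Differently numbered arrays were not compared, and the labels do not say what the numbers stand for. Whether the arrays were paired is therefore not known, and a fit with the replicate block is given only as an alternative. The procedure was tested on simulated data of the 11090 genes, in 5 runs with 200 genes changed. There it called 10.7% of changes of 0.5, 66.9% of changes of 1 and 95.5% of changes of 2. The rates belong to that setting. In the measured arrays 0 genes passed after adjustment, KO 5 had a weight of 0.335 and the SD was larger in KO for 68.1% of tested genes. The share of changes of each size that the measured arrays would reveal was not tested. Alternatives changed the level filter, probe set rule, centring, array weights, prior and arrays used. Figures were drawn with matplotlib 3.10.9.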

Additional observations from a re-analysis of the deposited data

Results flagged for a closer look

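KO 5 was far below the other KO arrays in Ndufa4 (9.13, against 10.32 to 10.53) and in Ndufa3 (9.74, against 10.31 to 10.42). It was so also in ND3 (11.39, against 12.24 to 12.40) and ND4L (12.07, against 12.42 to 12.51) and in the median difference of the 7 mitochondrially encoded subunits from WT (-0.28, against -0.070 to -0.035). KO 1 was below the other KO arrays in Ndufs3 (5.07, against 5.21 to 5.25), where the whole KO range is narrow. Each stood out because its gap to the nearest KO array took up most of the range of the group. Among the 42 Nduf genes 3 were so marked, where chance marks about 1 in 20 (2.1 genes).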

How the results depend on the processing

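No Nduf gene passed the adjusted threshold under any of the 18 alternatives. The count at an unadjusted p under 0.05 was 7 with the replicate block, 4 with array weights, 0 to 4 when a single array was left out (0 without WT 1 or KO 2, 3 without KO 3 and 4 without KO 5) and 0 without WT 1 and KO 4, against 1 as reported. Over all genes 0 passed after adjustment as reported, but 40 did with array weights, 5 without KO 5, 3 with a trended and robust prior and 2 with the replicate block. The number higher in KO was 21 to 33 under the other 17 alternatives and 16 without KO 1 and KO 2. The median of the 14 genes controlling respiratory chain transcription moved from -0.17 to -0.046 without the level filter and at its 25th percentile, where 16 were tested. The other lists' medians moved by less than the spread between arrays, but those of complexes III, IV and V turned sign.

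Of the 13 genes given in full by rule, 5 turned sign. Ndufb9, added after its values were seen, was at 0.15 without KO 5. Ndufa11 was at -0.091 with the mean of its probe sets. Ndufv2 was at 0.0020 with arrays centred on all probe sets and with the replicate block, 0.0099 with array weights, 0.0088 without WT 1 and KO 4, and -0.080 to 0.017 without single arrays. Ndufa4 was at 0.088 with the replicate block and -0.37 to 0.056 without single arrays or the pairs left out. Ndufab1 was at 0.021 with the block, 0.044 with array weights, 0.086 without WT 1 and KO 4, and -0.16 to 0.067 without single arrays. Ndufs8 was at -0.077 without KO 1 and KO 2, 0.073 to 0.34 without single arrays and 0.39 with the block. The cause was not tested. The fits without those pairs of arrays were chosen after seeing the data.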
